A study of Mus musculus with 16 samples.

Results

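The MHC class I antigen presentation genes described here are H2-K1 and H2-D1 (heavy chains), B2m (light chain), Tap1 and Tap2 (peptide transporter), Tapbp (tapasin), Psmb8, Psmb9 and Psmb10 (immunoproteasome subunits) and Nlrc5 (transcriptional activator). They were taken by gene name from a raw count table of suprarenal aorta, the abdominal segment above the kidneys, and make up 10 of its 29695 genes. The 4 groups were male mice whose poly-A RNA was sequenced, with 4 libraries each; the labels call them biological replicates but name no animals, so p-values measure the spread between these libraries. They were Vamp8-/- mice (KO) given angiotensin II (AngII), KO mice given saline, C57BL/6 wild-type mice (WT) given AngII, and WT mice given saline. AngII, a peptide that raises blood pressure and provokes aortic disease in mice, was infused at 1000 ng/kg/min for 5 days, and all mice carried a subcutaneous minipump. Vamp8 encodes a SNARE protein that takes part in membrane fusion at endosomes and secretory vesicles. The labels give neither the age of the mice nor the strain background of the KO mice, and the submitters had excluded vessels that bled into their wall or were visibly diseased.

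Nearly all nucleated cells display peptides on MHC class I. Proteasomes cut cytosolic proteins, the Tap1-Tap2 transporter carries the peptides into the endoplasmic reticulum, tapasin holds the transporter next to an empty heavy chain, and the heavy chain travels to the surface once it has bound B2m and a peptide. Interferon-gamma raises the whole set of genes through factors that include IRF1 and NLRC5, and swaps the catalytic subunits Psmb5, Psmb6 and Psmb7 for Psmb8, Psmb9 and Psmb10. In an artery the genes are used by smooth muscle, endothelium, fibroblasts and leukocytes alike, so in bulk RNA fewer cells of a type and less RNA per cell cannot be told apart.

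The promoters of B2m, H2-K1, H2-D1 and Tap1 are shown to place the searched motifs in the light chain, both heavy chains and a transporter gene, whose levels varied together within groups. In the Tap1 stretch the Y box letters were the 1 match. Each is the 250 bases before a RefSeq start (GRCm38.p6, read 5′ to 3′ on the gene's strand), and capitals mark matches to the motifs searched. B2m lies at chr2:122147437-122147686 on the plus strand, H2-K1 at chr17:34000348-34000597 on the minus strand (1 of 2 RefSeq starts), H2-D1 at chr17:35262844-35263093 on the plus strand and Tap1 at chr17:34187306-34187555 on the plus strand.
B2m: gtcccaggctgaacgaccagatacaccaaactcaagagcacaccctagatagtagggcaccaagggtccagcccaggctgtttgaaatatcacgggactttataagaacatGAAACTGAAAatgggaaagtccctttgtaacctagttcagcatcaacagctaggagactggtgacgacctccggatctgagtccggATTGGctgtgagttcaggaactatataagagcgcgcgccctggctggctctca
H2-K1: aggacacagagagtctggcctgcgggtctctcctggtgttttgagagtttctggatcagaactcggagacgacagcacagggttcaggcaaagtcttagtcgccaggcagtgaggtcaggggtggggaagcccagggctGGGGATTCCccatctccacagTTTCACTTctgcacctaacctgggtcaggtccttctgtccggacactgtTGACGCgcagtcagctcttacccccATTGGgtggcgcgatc
H2-D1: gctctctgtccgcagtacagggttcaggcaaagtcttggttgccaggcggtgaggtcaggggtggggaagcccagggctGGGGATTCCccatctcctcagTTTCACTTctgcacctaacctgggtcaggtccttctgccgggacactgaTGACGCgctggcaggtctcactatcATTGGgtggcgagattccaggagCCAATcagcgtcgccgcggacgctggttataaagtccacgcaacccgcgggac
Tap1: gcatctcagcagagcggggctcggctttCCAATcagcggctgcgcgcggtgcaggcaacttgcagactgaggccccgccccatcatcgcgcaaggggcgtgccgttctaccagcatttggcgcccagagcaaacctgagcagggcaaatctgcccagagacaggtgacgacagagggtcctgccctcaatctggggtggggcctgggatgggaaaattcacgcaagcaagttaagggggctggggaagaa
An entry was found for 8 of the 10 genes, all but Tap2 and Nlrc5. The window searched ran from 250 bases before to 50 after the start, on both strands, over 27025 genes. The interferon-stimulated response element core, the longest capital run in its line, stood in B2m, against 3.99% of all genes. These shares count a match at any start of a gene, while the 8 genes were searched at their first listed start. The enhancer A kappa-B letters GGGGATTCC stood in H2-K1 and H2-D1, against 0.296%. They were searched as a known class I element, so finding them there was no test. The cyclic-AMP-response-like letters TGACGC stood in the same heavy chain pair, against 8.37%, and the related TGACGT in none of the 8, also against 8.37%. The Y box letters ATTGG stood in B2m, H2-K1, H2-D1, Tap1, Tapbp and Psmb9, which is 6 of 8, against 41.1%. The Tap1 and Psmb9 matches are the same bases read on opposite strands, so they are not separate sites. The gamma-activated site TTCNNNGAA stood in Psmb8, against 9.55%. The shorter AANNGAAA, searched after the sequences had been seen, stood in B2m, where it overlaps the longer motif, and in both heavy chains, against 26.7%. The H2-K1 and H2-D1 windows agreed at 211 of 239 aligned bases (88.3%). Tap1 and Psmb9 start 226 bases apart on opposite strands, so they share this stretch, and 6.73% of the 100-base windows in Psmb9 transcripts also occur in Tap1. Because the use of read strand in the counting was not stated, reads from that overlap are uncertain.

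Library totals ran from 13284804 to 21643548 reads. Vamp8 was read at 14.1 to 26.7 CPM (read counts relative to library size, scaled with edgeR's TMM factors) in KO AngII and at 24.9 to 53.3 CPM in KO saline, against 52.3 to 60.9 CPM in WT AngII and 45.9 to 57.2 CPM in WT saline. The highest KO value, 53.3 CPM, was that of the library labelled KO saline replicate 1, which goes against its label. That library's share of reads from mitochondrially encoded genes (32.8%) and its Irf1 (41.3 CPM) lay above every WT library. Whether its label is right was not tested. KO AngII replicate 4 held 2695 CPM of neuron and chromaffin cell markers, against 0.770 to 159.1 CPM in the other KO AngII libraries. Mitochondrially encoded genes took 10.1 to 24.3% of reads in KO AngII and 27.0 to 32.8% in KO saline, against 9.56 to 16.3% in WT AngII and 8.33 to 17.7% in WT saline. Genes without a symbol, 2725 of them, were exactly those with 0 reads in all 8 WT libraries, so a difference in counting between KO and WT cannot be told apart from genotype. The library labelled KO saline replicate 1 had 0.00807% of its reads in these genes, and the other KO libraries had 0.0053 to 0.097%. These counts of calls are also given without KO AngII replicate 4 and the library labelled KO saline replicate 1, both of which stand apart: those for the 10 genes, the heavy chains, the loading genes, the regulators, the interferon-gamma targets and the markers. Smooth muscle markers summed to 5369 to 20300 CPM over the 16 libraries, so the labelled tissue had its defining markers.

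Per kilobase of exon (GENCODE M21 gene models), the mean levels had the order B2m, H2-D1, H2-K1, Tapbp, Psmb10 from the top and Nlrc5 at the bottom in each of the 4 groups. B2m averaged 1007 ± 210.6 CPM per kilobase in KO saline and 604 ± 114 in WT saline (SD, n = 4 each). H2-D1 averaged 308 ± 42.2 in KO saline and 197 ± 45.6 in WT saline. H2-K1 averaged 248.4 ± 62.7 in KO saline and 151 ± 54.4 in WT saline. The heavy chains varied together within groups (Pearson r = 0.959), so these SDs do not measure how steady their order was within libraries. Tapbp, at 51.3 ± 5.21 in KO saline and 41.2 ± 4.92 in WT saline, and Psmb10, at 24 ± 1.35 in KO saline and 15.3 ± 3.24 in WT saline, came next. Tap2, Psmb8, Psmb9 and Tap1 lay between 5.69 and 11.45 in KO saline and between 3.69 and 8.10 in WT saline. Nlrc5 was lowest, at 1.15 ± 0.477 in KO saline and 0.966 ± 0.399 in WT saline. All 10 genes passed the filter on low counts that kept 15984 genes.

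Class I genes were higher in KO than in WT aortae. Averaged over both infusions (8 libraries against 8), edgeR's quasi-likelihood test called 7 of the 10 (p adjusted by Benjamini-Hochberg across the 15984 genes, under 0.05), all 7 upwards, against a background of 4.48% of genes called higher. The called genes were both heavy chains, B2m, Tap2 and all of the immunoproteasome subunits. The 10 log2 fold changes ran from 0.15 to 0.79 with a median of 0.51, beside 0.04 over all genes. All 10 were above 0, as were 55.7% of genes tested, but with library totals in place of TMM scaling Tapbp turned to -0.00584 and the median of all genes shifted by -0.154 to -0.11. Under that scaling Psmb9 was the 1 gene called and the median of the 10 was 0.369. Without KO AngII replicate 4 and the library labelled KO saline replicate 1, 3 genes were called (H2-D1, B2m and Psmb9) and the median was 0.51. Leaving out 1 library at a time gave 2 to 8 calls: 8 without WT saline replicate 2, and 2 without KO saline replicate 2 or 3, WT AngII replicate 3 or 4, or WT saline replicate 1 or 4. It gave 3 without KO AngII replicate 4 or WT saline replicate 3. It gave 4 when KO AngII replicate 2, WT AngII replicate 1 or the library labelled KO saline replicate 1 was dropped.

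**Figure D1:**
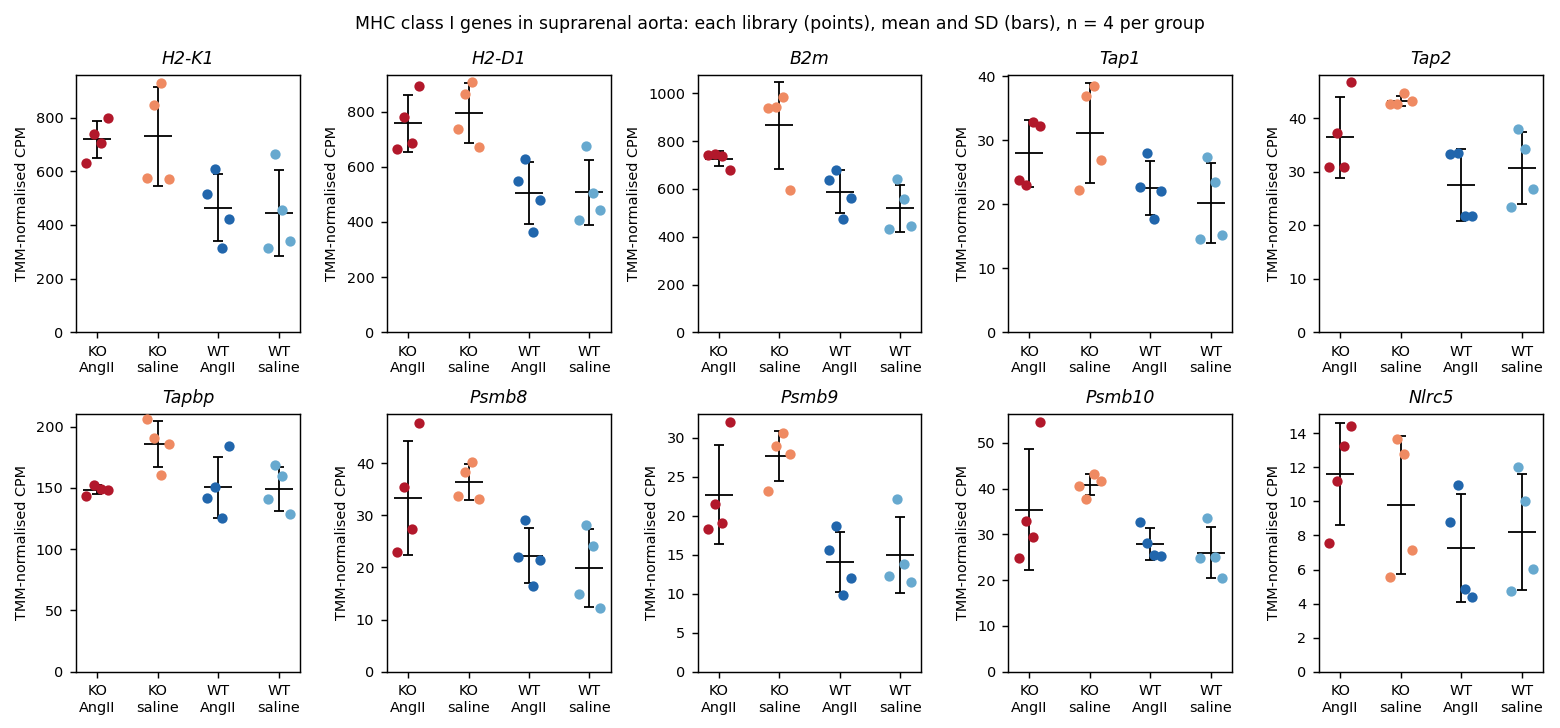
TMM-normalised CPM (y axes, from 0) of each of the 10 genes in KO AngII, KO saline, WT AngII and WT saline (x axes), with a point per library and bars for mean and SD (n = 4). With this scaling KO libraries lie mostly above WT libraries for the heavy chains and the immunoproteasome subunits, and WT saline replicate 2 is the highest WT saline library in each panel, at 664 CPM for H2-K1.

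The heavy chains present the peptide, and H2-K1 (ENSMUSG00000061232, chromosome 17) and H2-D1 (ENSMUSG00000073411, chromosome 17) are the classical ones of the C57BL/6 strain. H2-K1 had 632, 739, 706 and 797 CPM in KO AngII and 576.5, 845, 928 and 569.6 CPM in KO saline, against 513, 608, 315 and 423 CPM in WT AngII and 313, 664, 456 and 339.9 CPM in WT saline. Under AngII every KO library lay above every WT library, and under saline the groups overlapped through WT replicate 2. Averaged over infusions, H2-K1 was 1.60-fold higher in KO (log2 0.67 ± 0.18 SE, edgeR adjusted p = 0.0349), a call made in 6 of the 16 fits that left out 1 library. H2-D1 had 666, 782, 687 and 893 CPM in KO AngII and 737, 862, 907 and 672 CPM in KO saline, against 550.1, 629, 365 and 480.0 CPM in WT AngII and 408, 673, 506 and 444 CPM in WT saline. Only the lowest KO saline library fell below the highest WT saline one, and the AngII groups did not overlap. The mean of H2-D1 was 776 ± 100.4 CPM in KO and 507 ± 106 CPM in WT (SD, n = 8 each), a 1.53-fold difference (log2 0.61 ± 0.14 SE, edgeR adjusted p = 0.0175), and it was called in each of 16 fits that left out 1 library.

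B2m (ENSMUSG00000060802, chromosome 2) pairs with every heavy chain and holds it in shape. It had 741, 747, 738 and 678 CPM in KO AngII and 938, 942, 986 and 596 CPM in KO saline, against 637, 680.4, 474 and 563 CPM in WT AngII and 433, 639, 559 and 445 CPM in WT saline. In KO saline 3 libraries stood far above every WT library, and replicate 4 of each KO group was the low one. B2m was the 1 gene of the 10 called within saline alone, 1.67-fold higher in KO (log2 0.74 ± 0.19 SE, edgeR adjusted p = 0.0474, background 1.23% called higher). Under AngII its log2 difference was 0.30 ± 0.19 SE (edgeR adjusted p = 0.447), and the average over infusions was 0.52 ± 0.13 SE (edgeR adjusted p = 0.0268). The saline call was made in 3 of the 16 fits that left out 1 library and the average call in 8. Leaving out the library labelled KO saline replicate 1 gave 0 calls of 10 within saline, and leaving it out together with KO AngII replicate 4 gave 2, Psmb9 and Psmb10.

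**Figure D2:**
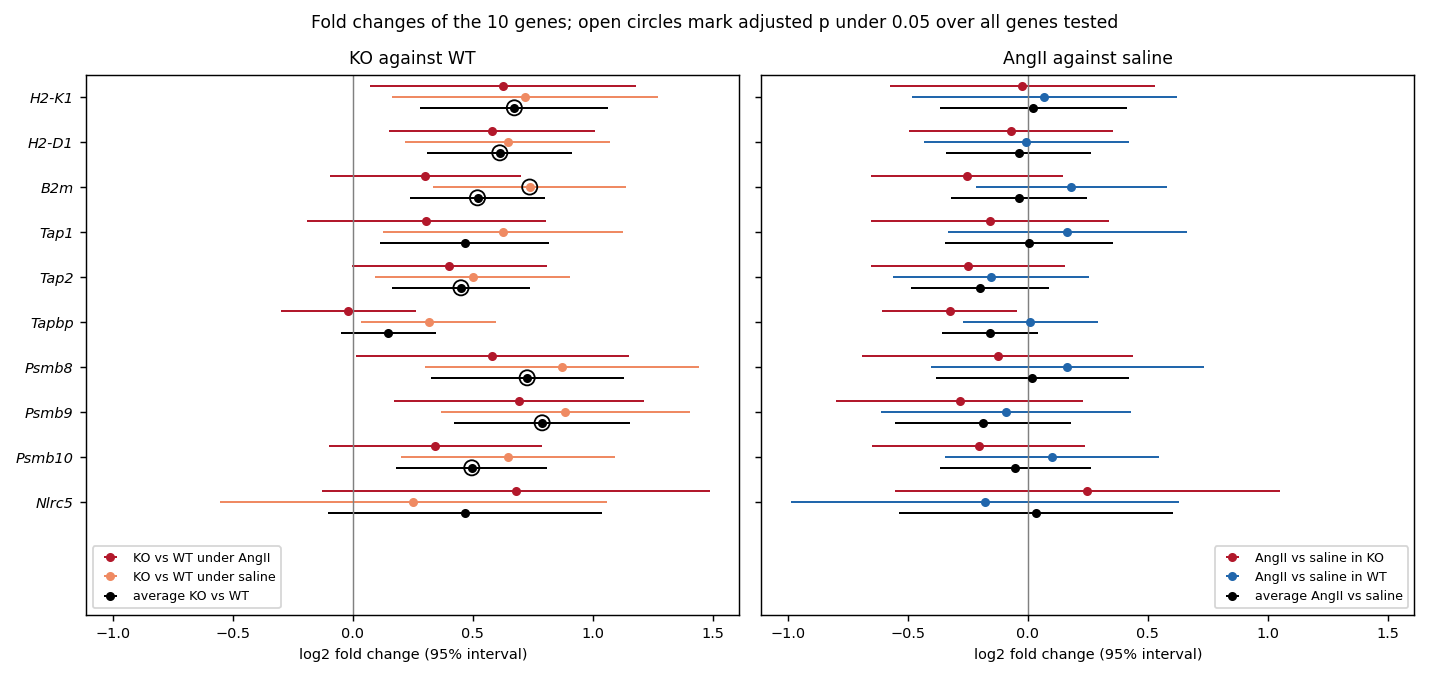
Log2 fold changes with 95% intervals (x axes) for the 10 genes (y axis), KO against WT on the left and AngII against saline on the right, for each single comparison and its average. Open circles mark calls, which are 7 KO averages and B2m under saline. On the left the 1 point below 0 is Tapbp under AngII (-0.02; with library totals it is 0.00233 and the Tapbp average -0.00584), and on the right the 1 interval that leaves 0 is that of Tapbp in KO.

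The transporter subunits had average differences of 0.45 and 0.47 on the log2 scale. Tap2 (ENSMUSG00000024339, chromosome 17), which pairs with Tap1 in the peptide pump, had 30.9, 37.2, 30.8 and 46.8 CPM in KO AngII and 42.7, 42.6, 44.6 and 43.2 CPM in KO saline, against 33.4, 33.4, 21.7 and 21.7 CPM in WT AngII and 23.5, 38.0, 34.3 and 26.7 CPM in WT saline. The KO saline libraries had a coefficient of variation of 2.14% and all lay above WT saline, while the AngII groups overlapped. Its average log2 difference of 0.45 ± 0.14 SE lay at the threshold (edgeR adjusted p = 0.0499) and was called in 5 of the 16 fits without 1 library. Tap1 (ENSMUSG00000037321, chromosome 17) ranged from 22.3 to 38.6 CPM over the KO libraries and from 14.6 to 28.0 CPM over the WT libraries, and its average log2 difference of 0.47 ± 0.17 SE was not called (edgeR adjusted p = 0.0911). Tapbp (ENSMUSG00000024308, chromosome 17), the bridge between transporter and heavy chain, ranged from 144 to 206 CPM in KO and from 125 to 184 CPM in WT. Its average of 0.15 ± 0.093 SE had a 95% interval of -0.05 to 0.35, whose upper end is a rise of 1.27-fold (edgeR adjusted p = 0.336).

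Of the 10 genes, the immunoproteasome subunits Psmb9 and Psmb8 had the largest average differences. Psmb9 (ENSMUSG00000096727, chromosome 17), the caspase-like-site replacement, had 18.3, 21.4, 19.1 and 32.0 CPM in KO AngII and 23.2, 28.9, 30.6 and 27.9 CPM in KO saline, against 15.7, 18.6, 9.89 and 12 CPM in WT AngII and 12.3, 22.2, 13.9 and 11.5 CPM in WT saline. Every KO saline library was above every WT saline library, by a narrow margin over WT replicate 2, and under AngII KO replicate 1 fell just below WT replicate 2. Psmb9 was 1.73-fold higher in KO on average (log2 0.79 ± 0.17 SE, edgeR adjusted p = 0.0133). Of the 10 genes it was the 1 called in all 16 fits without 1 library (adjusted p 0.00224 to 0.0358) and in all 10 other settings. Psmb8 (ENSMUSG00000024338, chromosome 17), the chymotrypsin-like-site replacement, had 22.9, 35.4, 27.3 and 47.7 CPM in KO AngII and 33.7, 38.3, 40.2 and 33.2 CPM in KO saline, against 22, 29.1, 16.4 and 21.5 CPM in WT AngII and 15.0, 28.1, 24.1 and 12.3 CPM in WT saline. Its groups did not overlap under saline and did under AngII, and the average log2 difference was 0.73 ± 0.19 SE (edgeR adjusted p = 0.0288), called in 8 of the 16 fits without 1 library. Psmb10 (ENSMUSG00000031897, chromosome 8), the trypsin-like-site replacement, had 24.8, 32.8, 29.5 and 54.7 CPM in KO AngII and 40.6, 37.8, 43.2 and 41.7 CPM in KO saline, against 32.7, 28.2, 25.6 and 25.2 CPM in WT AngII and 24.9, 33.7, 25.2 and 20.4 CPM in WT saline. KO AngII replicate 4 was its highest library, and the average log2 difference of 0.50 ± 0.15 SE was called (edgeR adjusted p = 0.0487), as it was in 3 of the 16 fits without 1 library.

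The subunits that the immunoproteasome replaces did not pass the test. Psmb5, Psmb6 and Psmb7 had average KO against WT log2 differences of 0.33, 0.10 and 0.24, with edgeR adjusted p of 0.253, 0.515 and 0.286. Their levels per kilobase in KO saline were 116.5, 65.7 and 19.1 CPM, against 74.0, 57.7 and 15.8 CPM in WT saline. Psmb5 stood at 169.5 CPM in the library labelled KO saline replicate 1 and at 76.5 to 91.9 CPM in the other KO saline libraries. The log2 ratio of Psmb9 to Psmb6 within a library hardly changes with scaling. It averaged -2.33 ± 0.306 in KO AngII and -3.0 ± 0.363 in WT AngII (SD, n = 4 each). All 4 KO AngII libraries lay above the WT AngII ones, a difference of 0.67 with the smallest p that 4 against 4 allows (exact two-sided permutation p = 0.0286), which rose to 0.343 when adjusted over 12 ratio tests. Under saline the difference was 0.75 (exact permutation p = 0.0571). The overlap there was between the library labelled KO saline replicate 1 (-2.76) and WT saline replicate 2 (-2.42). The ratios of Psmb8 to Psmb5 and of Psmb10 to Psmb7 differed between KO and WT by 0.09 to 0.56 (lowest exact permutation p = 0.0857), and no ratio passed after adjustment. Without both libraries that stand apart the ratio of Psmb8 to Psmb5 differed by 0.615 under saline (exact permutation p = 0.0286, 0.2 when adjusted over the ratio tests), and that of Psmb10 to Psmb7 by -0.0853 under AngII (exact permutation p = 0.8).

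Nlrc5 (ENSMUSG00000074151, chromosome 8) encodes an activator that acts at class I promoters. It had 7.56, 11.2, 13.2 and 14.4 CPM in KO AngII and 5.55, 13.7, 12.8 and 7.12 CPM in KO saline. In WT it had 8.79, 11, 4.88 and 4.40 CPM under AngII and 4.75, 12, 10 and 6.04 CPM under saline. All groups overlapped, at 70 to 253 reads a library, and the average log2 difference of 0.47 had a 95% interval of -0.10 to 1.04 (edgeR adjusted p = 0.291). Irf1, the interferon-induced transcription factor that acts on the same promoters, was higher in KO. It had 32.7, 29.8, 31.8 and 42.5 CPM in KO AngII and 41.3, 44.4, 39.9 and 49.9 CPM in KO saline, against 28.2, 25.5, 21.9 and 22 CPM in WT AngII and 24.1, 28.9, 26.5 and 24.8 CPM in WT saline. For Irf1 all 8 KO libraries lay above all 8 WT libraries, and the share of all genes that did so was not counted. Its average log2 difference was 0.62 ± 0.093 SE (edgeR adjusted p = 0.00104), with 0.75 under saline (edgeR adjusted p = 0.00824, a call lost with library totals) and 0.49 under AngII (edgeR adjusted p = 0.0638). Ifng, the gene of interferon-gamma itself, had 3 reads in 1 WT AngII library and 0 in the other 15, below the filter.

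Within single infusions the same direction held with fewer calls. Under saline all 10 log2 differences were positive, as were 54.4% of genes (0.25 to 0.89, median 0.65, beside 0.05 over all genes), although with library totals Nlrc5 turned to -0.0132 and Tapbp to -0.014. Unadjusted p was under 0.05 for 9 of the 10, against a background of 10.1% higher at that level, and 4 genes (Tap2, Psmb8, Psmb9 and Psmb10) had KO groups wholly above WT, against 5.17% of genes. Under AngII 9 of 10 were positive, as were 54.9% of genes (median 0.49, beside 0.04 over all genes). That median was 0.325 without KO AngII replicate 4, and 0.347 without it and the library labelled KO saline replicate 1. Library totals brought Tapbp, the other one, to 0.00233. In this comparison 0 were called by edgeR, against a background of 0.995%. An unadjusted p under 0.05 was reached by 4 genes, against 10.3% of genes higher at that level. DESeq2 called 1 (H2-D1), and the groups of H2-K1 and H2-D1 did not overlap, against 4.54% of genes.

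AngII moved none of the 10 genes past the threshold. In KO the log2 changes ran from -0.33 to 0.25 (lowest edgeR adjusted p = 0.213) with 0 called, against a background of 0.0501%. In WT they ran from -0.18 to 0.18 (lowest edgeR adjusted p = 0.911) with 0 called, against a background of 0.444%, and 0 had an unadjusted p under 0.05, against 8.8% of genes. DESeq2 and limma voom also called 0 of 10 in both. By voom all 10 changes in WT were above 0 (median 0.22, beside 0.02 over all genes). The 1 gene with an unadjusted p under 0.05 in KO, where 19.2% of genes had one, was Tapbp, at 144, 152, 149 and 149 CPM in KO AngII and 206, 191, 161 and 186 CPM in KO saline, with no overlap between the groups, as for 3.52% of genes downwards (log2 -0.33 ± 0.13 SE, edgeR adjusted p = 0.213). Averaged over genotypes 0 of 10 were called by edgeR, DESeq2 or voom, against a background of 1.04%, and 0 had an unadjusted p under 0.05, against 15.1%. The 95% intervals of that average for the heavy chains and B2m lay between 0.775-fold and 1.33-fold, and that of Nlrc5 between 0.690-fold and 1.52-fold. The difference between the AngII effects of KO and WT was tested as an interaction. None of the 10 passed (lowest edgeR adjusted p = 0.491, background 0.0188%), and DESeq2 called 0. By edgeR 0 had an unadjusted p under 0.05, background 11.2%, and the median was -0.24, beside 0.007 over all genes. Limma voom also called 0 (lowest voom adjusted p = 0.0994), but all 10 of its differences were below 0. Their median was -0.53, beside -0.03 over all genes. The edgeR intervals were wide: that of H2-D1 was -0.67 to 0.54 and that of B2m -1.0 to 0.13 on the log2 scale. Both AngII comparisons and both genotype comparisons share groups, so their signs are not independent.

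Other genes of the pathway were read from lists chosen by function. Of 20 further class I heavy chains, which include non-classical molecules of restricted or intracellular roles, 13 were tested. Averaged over infusions, 4 were higher in KO and 0 lower, against a background of 4.48% called higher: H2-T10 (log2 1.31, edgeR adjusted p = 0.0134), H2-Q10 (2.03, adjusted p = 0.0145), H2-T24 (1.2, adjusted p = 0.0183) and H2-Q4 (0.85, adjusted p = 0.0237). The median of the 13 was 0.46 (0.33 with library totals), beside 0.04 over all genes. H2-Q10, known as a secreted molecule of the liver, varied widely, at 69.1 ± 39.8 CPM in KO AngII and 110.4 ± 71.9 CPM in KO saline, against 18.9 ± 11.9 CPM in WT AngII and 24.4 ± 21.4 CPM in WT saline (SD, n = 4 each). These genes are close copies of each other, how reads with several matches were counted was not stated, and H2-D1 shares 4.09% of its 100-base windows with other genes, among them H2-Q1 and H2-T23, so their counts are uncertain. H2-K1 and B2m shared 0% of theirs. Under saline H2-T10 (1.58, edgeR adjusted p = 0.0487) and Hfe, an iron-regulating relative of class I (0.60, adjusted p = 0.0415), were called higher, against a background of 1.23%. Without both libraries that stand apart the same 4 averages were called, and under saline H2-T24 alone.

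Some genes of the peptide loading and trimming list were lower in KO. Of 15 peptide loading and trimming genes, 4 were lower in KO on average and 0 higher, against a background of 4.47% called lower. They were Sec61a1, the channel into the endoplasmic reticulum (log2 -0.58, edgeR adjusted p = 0.00603), Calr, which holds the heavy chain during loading (-0.56, adjusted p = 0.011), Pdia3, its partner disulphide isomerase (-0.49, adjusted p = 0.0241), and Ide, a peptidase (-0.59, adjusted p = 0.0468). Sec61a1 was also lower under saline alone (-0.63, edgeR adjusted p = 0.0451, background 1.78% called lower), a call lost without both libraries that stand apart. Calr averaged 366 ± 9.03 CPM in KO AngII and 323 ± 19.3 CPM in KO saline, against 529.9 ± 133 CPM in WT AngII and 487 ± 77.6 CPM in WT saline (SD, n = 4 each). Without both libraries that stand apart Ide was not called and Nrd1 was called higher. The 15 genes of the constitutive proteasome core had a median of 0.21 with 0 called by edgeR, 15 positive with TMM scaling and 11 with library totals. The proteasome activator subunits (4 tested, 0 called) had a median of 0.34, and Psme1 came nearest at 0.38 (adjusted p = 0.0633).

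Of 23 upstream regulators tested, Irf1 was higher, Nfya (a subunit of the factor that binds the Y box, log2 -0.56, edgeR adjusted p = 0.00333) and Ifngr2 (a chain of the interferon-gamma receptor, -0.74, adjusted p = 0.0114) were lower, and 20 were not called, against a background of 4.48% called higher and 4.47% called lower. Nfya was also lower under saline alone (-0.64, edgeR adjusted p = 0.0257). The list median was 0.04, that of all genes. Among 22 interferon-gamma targets outside class I, Gbp5, a guanylate-binding protein of cell-autonomous defence, was the 1 called (0.79, edgeR adjusted p = 0.0433, background 4.48% called higher). All 22 log2 differences were positive with TMM scaling and 20 with library totals, as were 55.7% of genes tested with TMM scaling, with a median of 0.40 (0.28 with library totals). Without both libraries that stand apart Irf1, Nfya, Ifngr2 and Gbp5 were again the genes called on average, and Irf1 and Nfya under saline. No gene of any of these 6 lists was called in either AngII comparison or in the interaction.

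**Figure D3:**
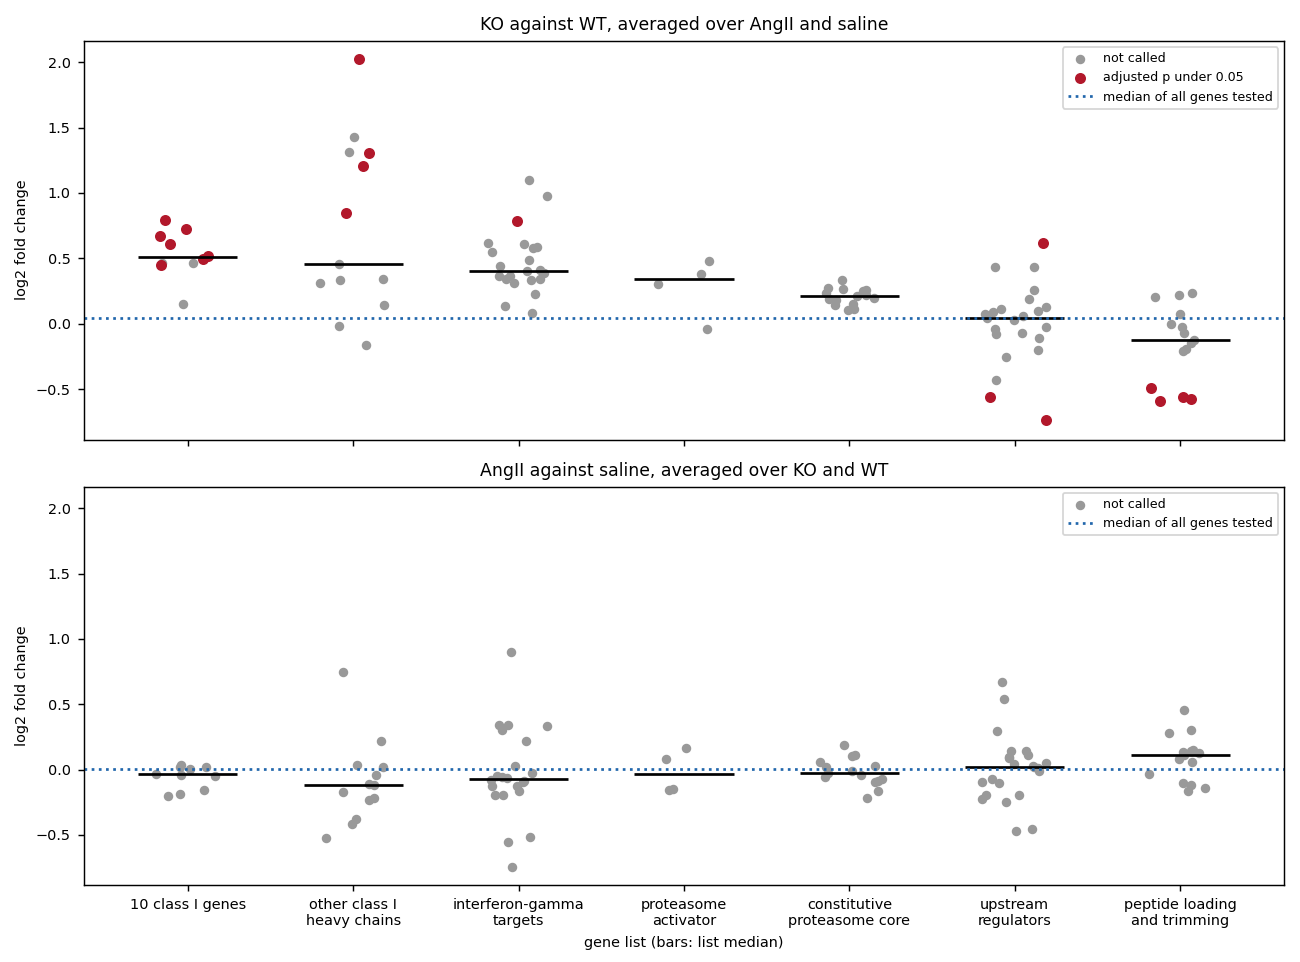
Log2 fold change (y axes) of every tested gene of the 10 class I genes and of 6 further lists (x axis), KO against WT above and AngII against saline below, each averaged over the other factor, with black bars for list medians and a dotted line for the median of all genes. With TMM scaling the class I genes have a median of 0.51 in the upper panel, the loading and trimming list is the 1 with only downward calls, and the lower panel has no called gene.

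Calls among markers of other cell types were in the endothelial, macrophage, fibroblast, neuron and chromaffin, and skeletal muscle lists, where the background was 4.48% of genes called higher, 4.47% called lower and 55.7% above 0. Endothelial markers were positive for 7 of 7 in KO against WT on average (median log2 0.50, 2 called higher, Egfl7 and Emcn), and summed to 748 to 1878 CPM in KO AngII and 876 to 2011 CPM in KO saline, against 617 to 1208 CPM in WT AngII and 923 to 1170 CPM in WT saline. Leukocyte markers had 0 of 5 called (median -0.21), with sums of 48.6 to 164.6 CPM in KO AngII and 51.1 to 70.1 CPM in KO saline, against 77.5 to 162.6 CPM in WT AngII and 41.6 to 97.2 CPM in WT saline. Macrophage markers were positive for 0 of 8 (median -0.60, 1 called lower, Csf1r), and fibroblast markers for 0 of 5 (median -0.53, 2 called lower, Pdgfra and Col1a1). T cell markers had a median of 0.03 (-0.10 with library totals), B cell markers 0.55 and dendritic cell markers 0.14, with 0 called in each. Natural killer cell markers summed to 0.466 to 3.22 CPM over the 16 libraries, and Klrb1c was at 0 in KO saline. Brown adipocyte markers had a median of 0.62 with 0 called, and smooth muscle markers -0.45 with 0 called and 0 of 6 positive. Smooth muscle sums were 5369 to 15800 CPM in KO AngII and 8266 to 10880 CPM in KO saline. In WT they were 11250 to 16740 CPM under AngII and 7484 to 20300 CPM under saline. WT saline replicate 2 had the lowest smooth muscle sum of its group, 7484 CPM against 18760 to 20300 CPM in the others. It also had the highest brown adipocyte sum of its group, 11400 CPM against 1507 to 5498 CPM in the others. Neuron and chromaffin markers had a median of 5.79 with 5 of 6 called higher (Th, Dbh, Chgb, Snap25 and Tubb3), and apart from KO AngII replicate 4 their sums reached 159.1 CPM in KO AngII and 92.7 CPM in KO saline, against at most 12.5 CPM in WT. Skeletal muscle markers had a median of 1.87 with 2 of 5 called higher (Myh1 and Acta1), and summed to 529 CPM in KO saline replicate 3 and at most 22.2 CPM in any other library. Without both libraries that stand apart 2 neuron and chromaffin markers were called (Th and Chgb, list median 4.46), 2 skeletal muscle markers (median 2.22), 1 endothelial marker (Egfl7), 1 fibroblast marker (Col1a1) and 0 macrophage markers. The part of endothelial, smooth muscle and brown adipocyte content, mitochondrial share and these tissues in the class I differences was not tested.

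Within groups the class I genes varied together. Over the 16 libraries less their group means, Pearson r of log2 CPM between 2 of the genes ran from 0.0307 (Tapbp and Nlrc5) to 0.959 (H2-K1 and H2-D1) in 45 pairs, with a median of 0.75 and 32 pairs above 0.5. The libraries share scaling and cell content across genes, so these values are a description. WT AngII replicate 2 and WT saline replicate 2 had all 10 genes above their group mean, while WT AngII replicate 3 and WT saline replicates 1 and 4 had 0 of 10 above. Without WT saline replicate 2, 8 of the 10 genes were called higher in KO on average and 7 under saline. Tapbp had the lowest mean r with the other genes, 0.265, and H2-D1 the highest, 0.769. Outside the set, the genes most like it by mean r were Gbp3 (0.782), Meox1 (0.744), Sh2d3c (0.744), Lgals3bp (0.741) and Pitpnc1 (0.738), of 15974 genes whose median was 0.0375 and whose 95th percentile was 0.521.

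**Figure D4:**
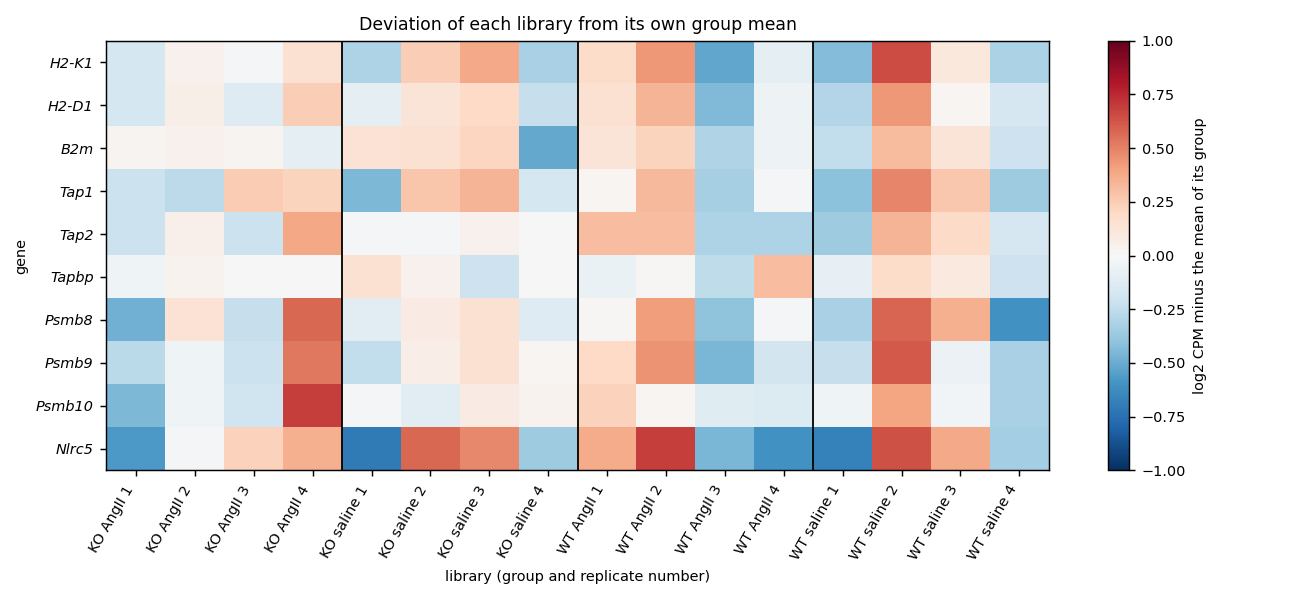
Deviation of log2 CPM from the group mean (colour, red above and blue below) for the 10 genes (rows) in the 16 libraries (columns, 4 per group, black lines between groups). WT AngII replicate 2 and WT saline replicate 2 are above the mean in every row (10 of 10). WT AngII replicate 3 and WT saline replicates 1 and 4 are below it in every row (0 of 10 above). Cells near the mean are almost white, such as Tapbp in WT AngII replicate 2 (0.015).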

How the data were processed

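The deposited table holds raw read counts per gene for 16 libraries, which the authors made from paired-end reads. The submitters' processing notes name GRCm39 (mm39) as the build, HISAT2 2.0.5 and featureCounts 1.5.0-p3, beside DESeq2 1.20.0. Which annotation release and strand option were used, and what was done with multi-mapping reads, was not stated. Counts were tested with edgeR 4.0.16 in R 4.3.3 (quasi-likelihood F test, 1 mean per group over all 16 libraries, TMM scaling, filterByExpr, which removed 13711 genes), and called at an adjusted p under 0.05. The SE is the log2 fold change divided by the square root of F. Subunit ratios were compared by exact permutation. Alternatives were DESeq2 1.42.0, limma 3.58.1 (voom), other scalings and filters, a replicate block and libraries left out. A short motif, AANNGAAA, was added after the promoters had been seen.

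The 10 genes and all lists were chosen with earlier results of these data known. From each list the called genes were named, at most 5 by smallest adjusted p, with Irf1, Ifng and the constitutive proteasome subunits Psmb5, Psmb6 and Psmb7 named in any case; 1 further gene of that rule is not reported here. Genes most like the set were ranked by mean Pearson r of within-group deviations. Promoters came from RefSeq on GRCm38.p6 and gene lengths from GENCODE M21 on GRCm38, another build than that of the counts, so no coordinates of counted genes are given. Genes with 0 reads in all 8 KO libraries numbered 1401. Counts ranged over 13284804 to 21643548 per library, and intervals cover the fitted spread between libraries.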

Additional observations from a re-analysis of the deposited data

Results flagged for a closer look

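Among 52 sets of 4 libraries checked, 3 had a library whose gap to its nearest neighbour exceeded Dixon's 95% critical value, as a share of the set's range, and chance flags about 1 in 20 sets. B2m stood at 678 CPM in KO AngII replicate 4 (gap 0.867 of the range), below 738 to 747 CPM in the other 3 libraries. B2m stood at 596 CPM in KO saline replicate 4 (gap 0.877), below 938 to 986 CPM in the other 3. The log2 ratio of Psmb9 to Psmb6 was -2.42 in WT saline replicate 2 (gap 0.882), above -3.0, -3.06 and -3.07 in the other 3.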

How the results depend on the processing

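All AngII and interaction counts stayed at 0 calls of the 10 genes by every setting run. The KO against WT average gave 7 calls, with 1 under library totals, 3 without a filter and 3 without both libraries that stand apart, and 5 to 8 under the other settings. Leaving out 1 library gave 2 to 8: 8 without WT saline replicate 2, 3 without KO AngII replicate 4 or WT saline replicate 3, 4 without KO AngII replicate 2, WT AngII replicate 1 or the library labelled KO saline replicate 1, and 2 without KO saline replicate 2 or 3, WT AngII replicate 3 or 4, or WT saline replicate 1 or 4. KO against WT under saline gave 1 call, with 5 by DESeq2, 8 by limma voom, 2 without both libraries, and 0 under library totals, no filter, a robust fit, no mitochondrial genes or the compared groups alone. Leaving out 1 library there gave 0 to 7, namely 7 when WT saline replicate 2 was dropped, 3 when KO AngII replicate 4 was, 1 when KO saline replicate 4 was, and otherwise 0. KO against WT under AngII gave 0 calls, and 1 by DESeq2. The cause of these shifts was not tested. Library totals moved the median of all genes by 0.273 in the AngII change in KO, by -0.326 in KO against WT under saline, by 0.347 in the interaction and by -0.154 in the KO against WT average.

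The deviations of same-numbered libraries had r from -0.423 to 0.442, with 8 of 24 pairs above 0.1. Libraries of different numbers were not compared, so whether the numbers pair them was not settled. With the replicate block the KO against WT counts were 5 on average and 0 under saline, and the sign turned in the AngII change in WT for H2-D1 0.00201, in the AngII change in KO for H2-K1 0.0053.

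With library totals alone the sign turned in the AngII change in WT for Tapbp -0.0566, in the AngII change in KO for H2-K1 0.238, H2-D1 0.206, B2m 0.0179, Tap1 0.101, Tap2 0.04, Psmb8 0.171 and Psmb10 0.101, in KO against WT under saline for Tapbp -0.014 and Nlrc5 -0.0132. Under that setting the sign turned in KO against WT under AngII for Tapbp 0.00233, in the interaction for H2-K1 0.223, H2-D1 0.275, Tap2 0.255, Tapbp 0.0163, Psmb8 0.0577, Psmb9 0.145 and Psmb10 0.0598, in the KO against WT average for Tapbp -0.00584. Under that setting the sign turned in the average AngII change for H2-D1 0.069, B2m 0.068 and Psmb10 0.0707. With limma voom the sign turned in the AngII change in WT for H2-D1 0.188, Tap2 0.0455, Psmb9 0.151 and Nlrc5 0.149, in KO against WT under AngII for Tapbp 0.0165, in the interaction for Nlrc5 -0.103. Under that setting the sign turned in the average AngII change for H2-D1 0.0171, B2m 0.0525 and Tap1 -0.0099. Without mitochondrial genes the sign turned in the AngII change in WT for Tapbp -0.0082, in the average AngII change for Tap1 -0.00763. With the compared groups alone the sign turned in the AngII change in WT for Tapbp -0.00133. Without a filter the sign turned in the AngII change in KO for H2-K1 0.00909. Without both libraries that stand apart the sign turned in the AngII change in KO for Nlrc5 -0.0651 and the ratio Psmb8/Psmb5 -0.164, in the average AngII change for H2-K1 -0.0524, B2m 9.12e-05, Tap1 -0.0982, Psmb8 -0.109 and Nlrc5 -0.122, in KO against WT under AngII for the ratio Psmb10/Psmb7 -0.0853.

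Leaving out 1 library turned some signs in the AngII change in WT, with ranges of H2-K1 -0.0836 to 0.331, H2-D1 -0.121 to 0.16, Tapbp -0.101 to 0.0896, Psmb8 -0.00734 to 0.379, Psmb9 -0.25 to 0.163, Nlrc5 -0.441 to 0.063, the ratio Psmb8/Psmb5 -0.0942 to 0.0893 and the ratio Psmb9/Psmb6 -0.207 to 0.0449. In the AngII change in KO the ranges were H2-K1 -0.124 to 0.115, Psmb8 -0.362 to 0.017 and the ratio Psmb8/Psmb5 -0.0447 to 0.48. In KO against WT under AngII the ranges were Tapbp -0.0988 to 0.0918 and the ratio Psmb10/Psmb7 -0.0852 to 0.328. In the interaction the ranges were H2-K1 -0.352 to 0.0487, H2-D1 -0.23 to 0.0393 and Tap2 -0.26 to 0.00877. In the average AngII change the ranges were H2-K1 -0.0592 to 0.155, H2-D1 -0.102 to 0.0453, B2m -0.107 to 0.0222, Tap1 -0.0621 to 0.0951, Psmb8 -0.0951 to 0.127, Psmb10 -0.197 to 0.0222 and Nlrc5 -0.103 to 0.156.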

Other observations

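Several related lists had interaction medians below 0 with TMM scaling, where the median of all genes was 0.007, and library totals raised that median to 0.354. The log2 interaction was positive for 0 of 13 further class I heavy chains (median -0.40), against 5 of 13 with library totals (median -0.03). It was positive for 0 of 15 constitutive core subunits (median -0.26), against 11 of 15 with library totals (median 0.10). It was positive for 2 of 22 interferon-gamma targets (median -0.31), against 12 of 22 with library totals (median 0.04). None of these genes was called by edgeR under either scaling.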
